A study of Homo sapiens with 6 samples.

Results

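Among the 1161 genes that the deposited table of sorted brain metastatic cells lists, 14 belong to the integrin, laminin, collagen, cadherin, protocadherin, claudin, tissue inhibitor of metalloproteinases (TIMP), ADAM and ADAMTS, and serpin families. They were taken by gene symbol, and no matrix metalloproteinase (MMP), fibrillin or fibulin gene was listed. The families held 4 serpins, 2 genes of integrin name, 2 protocadherins, and 1 gene each of the laminins, collagens, claudins, cadherins, TIMPs and ADAMTS proteases. A further 3 listed genes with family names, *COL1A1*, *COL3A1* and *ITGB2*, were left out by the selection. The names cover more than adhesion and matrix proteolysis. *ITGB1P1* is a processed pseudogene, *ADAMTS1* is the only protease, and the serpins include intracellular and plasma proteins.

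The cells were MDA-MB-231, a human triple negative breast adenocarcinoma line, carrying GFP and stained with CellVue Claret (CV), a membrane dye that dividing cells dilute. They reached the brain by injection in the internal carotid artery of female C.B-17 SCID mice aged 6 to 8 weeks, and brains were taken 28 days later. GFP+ cells that had kept the dye (GFP+CV+) were sorted as dormant and those that had lost it (GFP+CV-) as proliferating, with 3 libraries of each and mRNA sequenced by the full-length Smart-seq2 protocol. Each library held cells pooled from 10 mice (replicates 1 and 2) or 9 mice (replicate 3), and both populations of a replicate came from the same pool. All groups thus share 1 cell line, the GFP label, the dye, the immunodeficient host and the day, so nothing here separates the line from the host or compares the brain with another site.

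Integrins are paired receptors, of 1 α and 1 β chain, that bind cells to collagens, laminins and other matrix proteins. Cadherins, protocadherins and claudins join cells to one another, claudins within tight junctions. Matrix is cut by metalloproteinases of the MMP, ADAM and ADAMTS families, which TIMPs inhibit, while most serpins trap serine proteases. In the brain these families are known for the vascular basement membrane, on which metastatic cells spread along vessels, and for the barriers between blood, myelin and nervous tissue.

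The selection of the table sets how the values can be read. It holds only genes that the authors had called different between these same 6 libraries, so directions and calls among the 14 genes are a description and not independent evidence of a difference. Levels are given as normalized read counts, which are counts divided by 1 size factor per library. The authors' size factors, recovered from the deposited counts and normalized read counts, ranged from 0.724 to 1.38. Between 8 and 25 listed genes had no count in a proliferating library as compared to between 115 and 127 in a dormant library. The paper reports that GFP+CV+ cells were a small minority of the GFP+ cells isolated. The number of cells in each library was not used here, and its part in the absent counts was not tested. Fewer cells that express a gene and less of its RNA per cell cannot be told apart in such pooled libraries. The depth of whole libraries cannot be read from a table of selected genes.

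The labelled cell type was checked by its markers. Of 11 markers of MDA-MB-231 and epithelial cells, 6 were listed, and their summed level was between 1017190 and 1114347 in proliferating and between 628465 and 639865 in dormant libraries. Most of each sum was *ANXA2*. All 6 were called lower in dormant cells, beside 50% of all listed genes. *KRT8*, *KRT18*, *LGALS1* and *ANXA2* were still high in every library, while *KRT81* fell from a mean of 9314 to 2103 normalized read counts. *CDH3*, a member described here, was at or near 0 in dormant cells. Markers of other cells differed too. Fibroblast and mural markers were listed for 6 of 11 and summed to between 4560 and 7762 in proliferating as compared to between 44361 and 71769 in dormant libraries, with *LUM* and *DCN* near 0 in proliferating cells. Astrocyte markers were listed for 5 of 10 and summed to between 603 and 1380 against between 7811 and 23956. Of 3 listed microglia and macrophage markers out of 13, all 3 were lower in dormant cells, beside 50% of all listed genes. Their sum was between 59874 and 120227 against between 36135 and 47132. Most of it was *CD74*, at 49796 to 106366 against 33296 to 44148. *ITGB2* was at 184 to 1281 against 2.85 to 24.0. Endothelial cells (1 of 10, *EMCN*) and oligodendrocytes (1 of 10, *CLDN11* itself) had 1 listed marker each. The part of other cell types in the results was not tested.

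Before the levels, the sequences behind them are shown for the members where they matter most. *ITGB1P1* is shown because its counts cannot be assigned to it. The annotation places it on chromosome 19 at 14621634-14622242, on the minus strand, as a single exon of 609 bases. All 609 bases were 100% identical to coding bases of *ITGB1*, the integrin β1 subunit on chromosome 10, and matched bases 1872 to 2480 of its canonical transcript of 3735 bases, across 4 exons. The stretch was whole in 18 of 36 annotated *ITGB1* transcripts. Its first 180 bases (GRCh38, chr19:14622063-14622242, minus strand, 5′ to 3′, from the genome sequence) carry no capitals because no base differs from *ITGB1*.
ITGB1P1: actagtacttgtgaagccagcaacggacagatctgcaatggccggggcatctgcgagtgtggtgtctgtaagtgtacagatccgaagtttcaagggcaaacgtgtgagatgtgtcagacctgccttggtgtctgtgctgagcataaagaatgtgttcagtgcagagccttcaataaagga

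Promoters were looked up for all members in RefSeq (GRCh38.p14), and 10 of 14 matched. No entry was found for *CDH3*, *SERPINF1*, *ADAMTS1* and *ITGB1P1*. Over the 250 bases before each start, the median GC content of the 10 promoters was 61.8%, and that of all 34943 promoters was 58%. The promoters with the highest and lowest GC content among members higher and among members lower in dormant cells are printed to show this range. They are *COL9A2* (71.6% GC, chr1:40317287-40317536, minus strand), *PCDHA2* (32% GC, chr5:140794602-140794851, plus strand), *SERPINB6* (68.8% GC, chr6:2971568-2971817, minus strand) and *SERPINA3* (40% GC, chr14:94612141-94612390, plus strand). Capitals mark the letters GGGCGG (GC box) and ACGTG (the core of the HIF motif) on either strand.
COL9A2: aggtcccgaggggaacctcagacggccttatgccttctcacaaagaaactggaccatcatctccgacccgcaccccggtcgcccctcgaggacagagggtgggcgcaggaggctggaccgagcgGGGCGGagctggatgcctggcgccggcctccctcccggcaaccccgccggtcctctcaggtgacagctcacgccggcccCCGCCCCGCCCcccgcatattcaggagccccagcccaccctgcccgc
PCDHA2: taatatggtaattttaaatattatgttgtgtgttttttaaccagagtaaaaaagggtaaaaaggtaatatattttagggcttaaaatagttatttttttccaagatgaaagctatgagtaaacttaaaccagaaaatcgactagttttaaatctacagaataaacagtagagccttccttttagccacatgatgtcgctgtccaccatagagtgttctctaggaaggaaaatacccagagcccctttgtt
SERPINB6: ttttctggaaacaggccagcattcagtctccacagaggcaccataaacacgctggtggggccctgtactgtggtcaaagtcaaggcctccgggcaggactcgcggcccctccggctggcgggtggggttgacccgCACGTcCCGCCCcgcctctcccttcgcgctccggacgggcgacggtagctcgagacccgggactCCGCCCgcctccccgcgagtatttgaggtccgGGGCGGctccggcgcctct
SERPINA3: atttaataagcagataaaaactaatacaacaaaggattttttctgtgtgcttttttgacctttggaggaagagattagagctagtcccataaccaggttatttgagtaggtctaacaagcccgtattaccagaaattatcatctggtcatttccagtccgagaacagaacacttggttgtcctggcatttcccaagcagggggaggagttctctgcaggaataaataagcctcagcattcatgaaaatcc

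GGGCGG was found in 6 of the 10 promoters, as compared to 42.5% of all promoters. The 6 were those of *CLDN11*, *COL9A2*, *PCDH1*, *SERPINA1*, *SERPINB6* and *TIMP1*, which include genes of both directions. ACGTG was in 2 of 10, *SERPINB6* and *TIMP1*, and in 18.5% of all promoters. None of the 10 held TATAAA (10.8% of all promoters), TGANTCA, the AP-1 motif (6.59%), GGAATG, the TEAD motif (11.9%), or CACGTG, the MYC E-box, which contains ACGTG (6.32%). Both strands were searched. A match is a description of the letters only.

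Of the 14 genes, 5 were called higher in dormant cells, where 49.6% of all listed genes were, and 8 were called lower, where 50% were, in the quasi-likelihood test of edgeR, with p-values adjusted after Benjamini and Hochberg across the 1161 listed genes. The 5 were *LAMA4*, *CLDN11*, *PCDHA2*, *COL9A2* and *ITGA1*. The 8 were *SERPINB6*, *SERPINF1*, *TIMP1*, *SERPINA1*, *CDH3*, *PCDH1*, *SERPINA3* and *ADAMTS1*, so that all 4 serpins, the TIMP and the protease were lower. *ITGB1P1* did not pass. The test thus called 13 of 14 genes, beside 99.7% of listed genes. Adjusted p was between 0.00322 and 0.0112 for the 13 called genes. Dormant libraries lay wholly above proliferating ones for 5 genes (49% of listed genes) and wholly below for 9 (50.2%), so none of the 14 had overlapping groups, nor had 99.2% of listed genes. The same 5 were higher and the same 9 lower in all 3 pools of mice (49.5% and 50.3% of listed genes). With the pool as a block in the fit, 5 were called higher (46.9% of listed genes) and 8 lower (47.6%). The two-sided exact permutation p was 0.1 for each, the smallest that 3 against 3 libraries allow.

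The fitted log2 fold change of dormant over proliferating cells had a median of 3.88 over the 5 higher genes, as compared to 1.70 over the 576 listed genes that were higher. Over the 9 lower genes it had a median of -1.84, as compared to -0.96 over 585 listed genes. Over all 14 it was -0.56, beside -0.33 over all listed genes. At least 2-fold higher were 5 of 14 genes (42.8% of listed genes) and at least 2-fold lower were 5 of 14 (23.7%). Scaling mattered for the size and not for the sign. Size factors set on the listed genes by the median of ratios moved the median of all listed genes by -0.58 and the share of calls that were higher from 49.8% to 37.2%, while every member kept its direction. Under it, 8 of 14 genes were at least 2-fold lower (48.4% of listed genes), with *SERPINB6* at -1.10, *SERPINF1* at -1.18 and *TIMP1* at -1.49 on the log2 scale, and 5 at least 2-fold higher (27.2%). *SERPINA1* was at -2.43, *LAMA4* at 3.77, *CLDN11* at 3.80, *COL9A2* at 1.70 and *ITGA1* at 1.08.

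**Figure D1:**
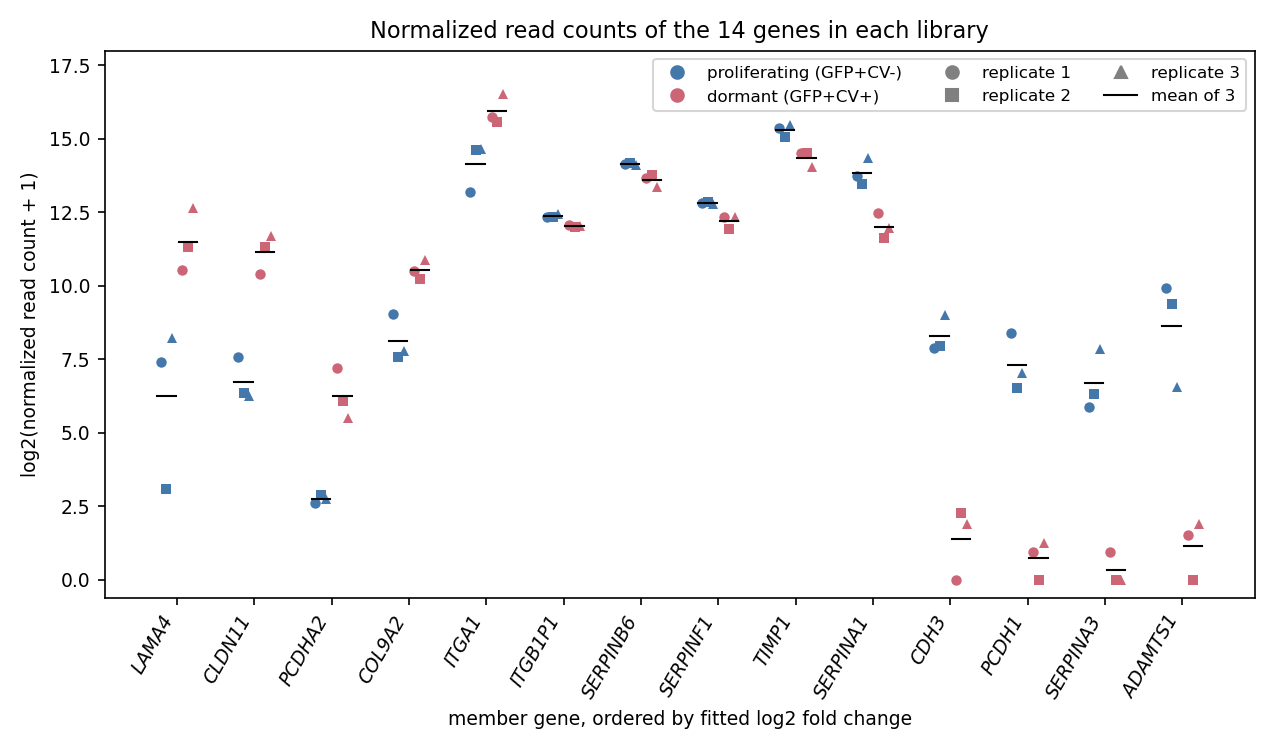
Each of the 14 genes in the 3 proliferating and 3 dormant libraries as log2(normalized read count + 1), with 1 point per library and a bar at the mean of each population. The dormant points lie wholly above the proliferating points for 5 genes and wholly below them for 9 genes, including *ITGB1P1*, which did not pass the test.

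The collagen receptor and the matrix chains are described first. *ITGA1* encodes integrin α1, which pairs with β1 to bind collagens and laminins, and lies on chromosome 5 at 52787916-52959209 (here and for the other genes GRCh38, GENCODE release 44). Its level was 9417, 25270.3 and 25552 normalized read counts in proliferating replicates 1, 2 and 3, and 55472.5, 48886 and 94477 in dormant replicates 1, 2 and 3. All dormant libraries were above all proliferating ones, and proliferating replicate 1 was the lowest of the 6. The mean rose from 20079.9 ± 9235 to 66278 ± 24642 (SD, n = 3), a log2 fold change of 1.72 ± 0.41 (SE, edgeR adjusted p = 0.00673).

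Exons of *ITGA1* overlap other genes, so its reads may be shared. Of the listed genes, *PELO*, which acts in rescue of stalled ribosomes, shares 499 exonic bases with it on the same strand, and the antisense AC022126.1 shares 109. Of genes not listed, the processed pseudogene RPL17P21 lies wholly within *ITGA1* exons on the same strand (571 bases). The antisense ITGA2-AS1, also not listed, shares 1385 bases. Multi-mapping reads were included in the counting, and the estimated counts of *ITGA1* were not whole in 6 of 6 libraries. Rising from 8289 ± 719 to 15676 ± 2602 normalized read counts, *PELO* changed by 0.92 ± 0.16 on the log2 scale (edgeR adjusted p = 0.00345). The listed antisense AC022126.1 changed by 1.82 ± 0.53 (edgeR adjusted p = 0.0115). The ratio of *ITGA1* to *PELO* was between 1.21 and 3.20 in proliferating and between 3.21 and 5.53 in dormant libraries. The ratio was thus higher in each dormant library than in any proliferating one, although the nearest of these nearly met. Its ratio to AC022126.1 was between 76.0 and 134 in proliferating and between 79.3 and 105 in dormant libraries, and these overlapped. The study's methods do not state that strand was used in counting.

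*LAMA4* encodes laminin α4, a chain of the laminins of vascular basement membranes, and lies on chromosome 6 at 112107931-112254939. It was read at 171, 7.55 and 297 normalized read counts in the proliferating replicates and at 1507, 2566 and 6393 in the dormant replicates. Proliferating replicate 2, with 7 counts, was far under the other proliferating libraries, and dormant replicate 3 was far over the other dormant ones. From 158 ± 145 to 3489 ± 2570 (SD, n = 3), the log2 fold change was 4.45 ± 1.14 (edgeR adjusted p = 0.00811). It was 5.27 without proliferating replicate 3 and 3.68 without dormant replicate 3, and 5.26 with limma on log2(normalized read count + 1). Within the 3 pools of mice the difference in log2(normalized read count + 1) was 3.13, 8.23 and 4.42. The listed antisense gene Z99289.1 shares 206 exonic bases with *LAMA4* and had 9.5, 1 and 7 estimated counts in proliferating and 41.5, 61 and 148.5 in dormant replicates. It rose by 4.36 ± 1.04 (edgeR adjusted p = 0.00672), and without strand, reads over the shared bases cannot be assigned to either gene.

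*COL9A2* encodes the α2 chain of collagen IX, a fibril-associated collagen best known from cartilage, and lies on chromosome 1 at 40300489-40317813. The proliferating replicates had 526, 189.8 and 219 normalized read counts and the dormant replicates 1443, 1214 and 1887. Proliferating replicate 1 was more than its group's other libraries and still under every dormant library. The log2 fold change was 2.28 ± 0.50 (edgeR adjusted p = 0.00575), and 2.89 without proliferating replicate 1. Its estimated counts were whole in every library, while 9 of the 14 genes, and 75.1% of listed genes, had a fractional count in at least 1 library. The fibrillar collagen genes that the selection left out moved the same way, *COL1A1* by 2.93 ± 0.32 and *COL3A1* by 3.76 ± 0.46 (edgeR adjusted p = 0.00321 and 0.00322), and both are among the fibroblast and mural markers whose sums are given above. Whether RNA of such cells took part in the levels of *LAMA4* and *COL9A2* was not tested.

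*ITGB1P1* stood at 5231, 5151 and 5538 normalized read counts in proliferating and at 4263, 4070.4 and 4229.7 in dormant replicates. These groups are narrow and close to each other but do not overlap. With means of 5307 ± 204 and 4188 ± 103 (SD, n = 3), the log2 fold change was -0.34 ± 0.15 and did not pass (edgeR adjusted p = 0.0544). It passed with DESeq2 (adjusted p = 0.000665) and limma (adjusted p = 0.0455) and with median-ratio size factors in edgeR (adjusted p = 0.00233). It did not pass with the replicate number as a block in edgeR (adjusted p = 0.144). DESeq2 passed all 1161 listed genes, which had been selected as different between the same libraries. Passing there is thus no independent evidence for *ITGB1P1*. Its estimated counts were not whole in 6 of 6 libraries, and with multi-mapping reads included in the counting, the value cannot be split between the pseudogene and *ITGB1*. *ITGB1* was not among the listed genes and was not analysed here. The paper reports its expression as unaltered between dormant and proliferating cells.

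Among genes of cell contacts, *CLDN11* was higher in every dormant library. It encodes claudin 11, the tight junction protein of myelin and of the Sertoli cell barrier, and lies on chromosome 3 at 170418868-170454733. On the same strand it shares 683 exonic bases with another protein-coding gene that is not listed, so reads may be shared. The level of *CLDN11* was 188, 81.9 and 74.8 normalized read counts in the proliferating replicates as compared to 1351, 2555.5 and 3357 in the dormant replicates. No proliferating library came near a dormant one. The mean rose from 115 ± 63.7 to 2421 ± 1010 (SD, n = 3), and the log2 fold change was 4.39 ± 0.57 (edgeR adjusted p = 0.00322). *CLDN11* is also the only listed gene of 10 oligodendrocyte markers. The other 9 were not analysed here, so RNA of such cells was not tested.

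The protocadherins moved in opposite directions. *PCDHA2* (chromosome 5, 140794852-141012347), of the clustered α protocadherins that neurons use to tell self from other, had 5.07, 6.47 and 5.69 normalized read counts in proliferating and 145, 67.2 and 44.2 in dormant replicates. Every proliferating library was low and alike, and dormant replicate 1 was the highest. The log2 fold change was 3.88 ± 0.77 (edgeR adjusted p = 0.00451), and 3.26 without dormant replicate 1. With limma on log2(normalized read count + 10) it was 2.46, since the proliferating level is under the count added. *PCDHA2* shares exonic bases on the same strand with 14 genes of the α cluster, since these genes splice different first exons to common last exons, and its counts were not whole in 5 of 6 libraries. The reads may therefore come from another α protocadherin.

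*PCDH1* (chromosome 5, 141853090-141879246), a protocadherin of epithelia outside the clusters, had 339.9, 91.6 and 130.04 normalized read counts in proliferating and 0.951, 0 and 1.38 in dormant replicates. It was at or next to 0 in all dormant libraries, with 2 counts in all as compared to 714 in proliferating libraries. The ratio of these sums, each divided by the summed size factors of its libraries, was 284 for proliferating over dormant (95% interval 78.4 to 2352). That interval, like the others of this kind, is exact binomial, takes counts as independent and covers counting error only. Of whole counts between 1 and 50, 77.0% to 87.9% were even in dormant and 64.2% to 73.0% in proliferating libraries. Counts may thus not be independent, and the intervals may be too narrow. The edgeR log2 fold change was -7.79 ± 1.16 (adjusted p = 0.00322), and -7.02 without proliferating replicate 1.

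*CDH3* encodes P-cadherin, a classical cadherin of basal epithelial cells, and lies on chromosome 16 at 68636189-68727468. The antisense CDH3-AS1, which is not listed, shares 537 exonic bases with it. The level of *CDH3* was 238, 245 and 519 normalized read counts in the proliferating replicates and 0, 3.84 and 2.76 in the dormant replicates. The dormant libraries held 6 counts together and the proliferating ones 1194, a ratio of 158 once scaled by size factors (95% interval 72.6 to 433). *CDH3* fell with an edgeR log2 fold change of -7.19 ± 1.13 (adjusted p = 0.00322), which was -6.59 without dormant replicate 1 and -7.97 without dormant replicate 2.

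**Figure D2:**
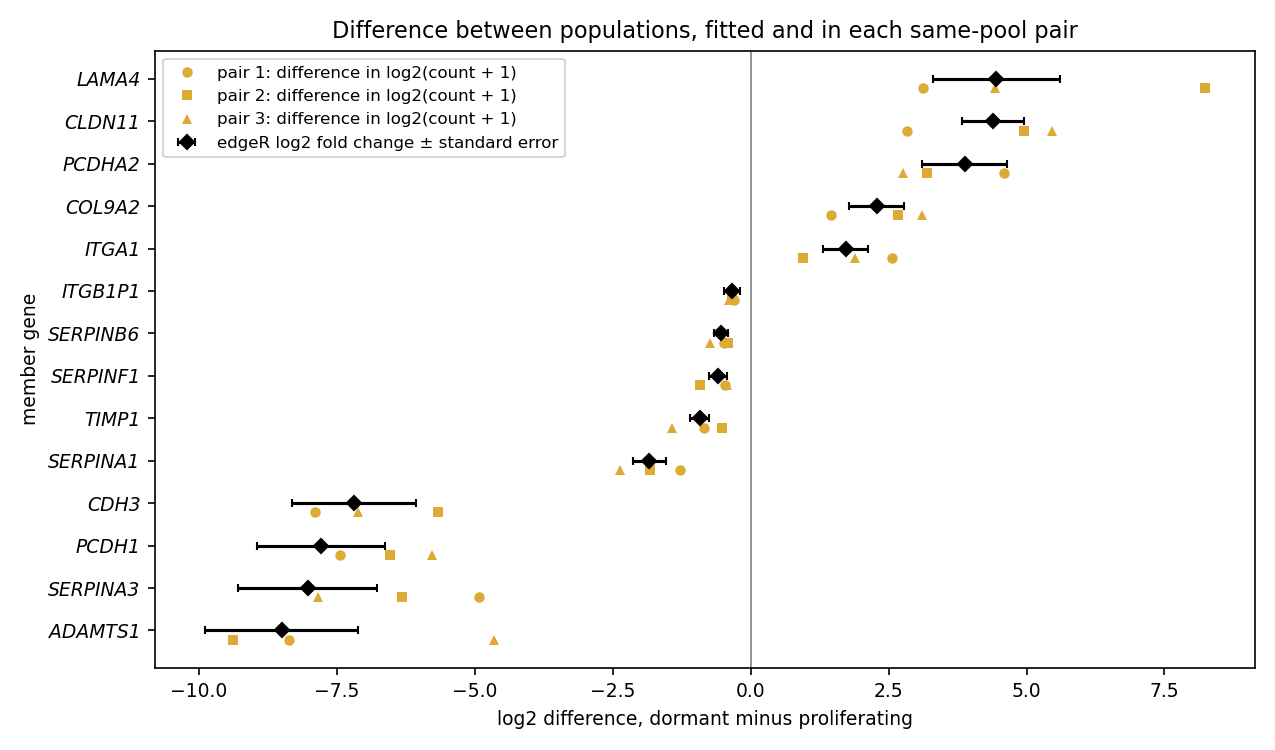
Fitted log2 fold change of dormant over proliferating cells with a standard error derived from edgeR's F statistic for the 14 genes, in order of size. Beside it is the difference in log2(normalized read count + 1) in each of the 3 pools of mice. Genes of laminin, collagen and claudin name lie right of 0, the serpins, *TIMP1*, *CDH3* and *ADAMTS1* lie left of it, and the protocadherins lie on both sides.

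*ADAMTS1*, the secreted protease that cuts the proteoglycans aggrecan and versican, was the only protease of the set and lies on chromosome 21 at 26835755-26845409. The proliferating replicates had 964, 669.6 and 94.3 normalized read counts and the dormant replicates 1.90, 0 and 2.76. Proliferating replicate 3 was about an order of magnitude under replicate 1, and all dormant libraries were next to 0. With 4 dormant and 2067 proliferating counts, the ratio scaled by size factors was 412 (95% interval 160.5 to 1512). The edgeR log2 fold change was -8.50 ± 1.39 (adjusted p = 0.00322), -7.90 without proliferating replicate 1 and -7.90 without dormant replicate 2.

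*TIMP1*, which inhibits metalloproteinases and lies on chromosome X at 47582408-47586789, had the highest level per length of the 14 genes in both populations. Its level was 42001, 33982 and 45223 normalized read counts in proliferating and 23315, 23711 and 16790.4 in dormant replicates. The highest dormant library was below the lowest proliferating one. It fell by 0.93 ± 0.17 on the log2 scale (edgeR adjusted p = 0.00389), with whole counts in every library.

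The serpins were all lower, by very different amounts. *SERPINA1* encodes α1-antitrypsin, the inhibitor of neutrophil elastase, and lies on chromosome 14 at 94376747-94390693. It had 13818, 11233 and 20711 normalized read counts in proliferating and 5662, 3161 and 3988 in dormant replicates. The lowest proliferating library was above the highest dormant one. The mean fell from 15254 ± 4899 to 4270.5 ± 1274 (SD, n = 3), a log2 fold change of -1.84 ± 0.29 (edgeR adjusted p = 0.00322).

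*SERPINA3*, α1-antichymotrypsin, lies in the same serpin cluster of chromosome 14, at 94612384-94624055. On the same strand it shares 1585 exonic bases with another protein-coding gene that is not listed, so reads may be shared. *SERPINA3* had 58.0, 78.7 and 229 normalized read counts in proliferating replicates and 0.951, 0 and 0 in dormant ones. A single count stood against 435, a ratio of 346 once scaled by size factors (95% interval 61.9 to 13715). The fitted log2 fold change, -8.03 ± 1.26 (edgeR adjusted p = 0.00322), was -7.19 without proliferating replicate 3 and -10.02 without dormant replicate 1, which held that count. Both genes are among 16 plasma protein genes of liver, of which 4 were listed and 4 were lower, beside 50% of all listed genes. The other listed ones were *ALB* and *AFP*, with means of 66.6 and 65.9 normalized read counts in proliferating libraries. In dormant libraries *ALB* was at 0 and *AFP* next to 0.

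*SERPINF1* (chromosome 17, 1762029-1777565), pigment epithelium-derived factor, is secreted and inhibits vessel growth but no protease. Its level was 7196, 7335 and 7006 normalized read counts in proliferating and 5189, 3878 and 5231 in dormant replicates. *SERPINB6* (chromosome 6, 2948159-2972165), an intracellular inhibitor of cathepsin G, had 18161.5, 18389 and 17616 as compared to 13024.5, 13854 and 10533. For both, the proliferating libraries lay close together and all dormant libraries were below them. The log2 fold changes were -0.59 ± 0.17 for *SERPINF1* (edgeR adjusted p = 0.0112) and -0.53 ± 0.13 for *SERPINB6* (edgeR adjusted p = 0.00696).

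A level of at most 4 counts in every dormant library was seen for 4 of the 14 genes, *CDH3*, *PCDH1*, *SERPINA3* and *ADAMTS1*, and for 14% of all listed genes. At most 4 counts in every proliferating library was seen for 0 of 14 genes and for 1.46% of listed genes. Their fitted log2 fold changes depend on the small count added in the fit. With limma they were between -6.36 and -7.48 on the scale of log2(normalized read count + 1) and between -3.45 and -5.16 with 10 added. With all counts halved, edgeR gave -9.63 for *PCDH1* and -9.01 for *SERPINA3*.

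Per kilobase of exonic length, the mean normalized read count of *TIMP1* was 27941 in proliferating and 14711 in dormant cells. In proliferating cells it was followed by *ITGB1P1* at 8714, *SERPINA1* at 3112, *SERPINF1* at 2401, *SERPINB6* at 1368 and *ITGA1* at 1083. In dormant cells *ITGA1* at 3574 per kilobase came after *ITGB1P1* at 6876, and *SERPINF1* followed at 1594, *SERPINB6* at 945 and *SERPINA1* at 871. *SERPINB6* and *SERPINA1* did not differ beyond their spread in dormant cells, at 798 to 1049 and 645 to 1155 per kilobase over libraries, and *CLDN11* at 313 to 777 reached into the range of *SERPINA1*. In proliferating cells *SERPINA1* at 2291 to 4225 and *SERPINF1* at 2343 to 2453 overlapped. *ITGA1* and *SERPINB6* overlapped there too, at 508 to 1378 and 1334 to 1393. *CLDN11*, *COL9A2* and *LAMA4* held the next places in dormant cells at 560.3, 359 and 291 per kilobase, and libraries of these 3 genes overlapped in range. *PCDHA2* remained the lowest of the higher genes at 14.1 per kilobase.

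**Figure D3:**
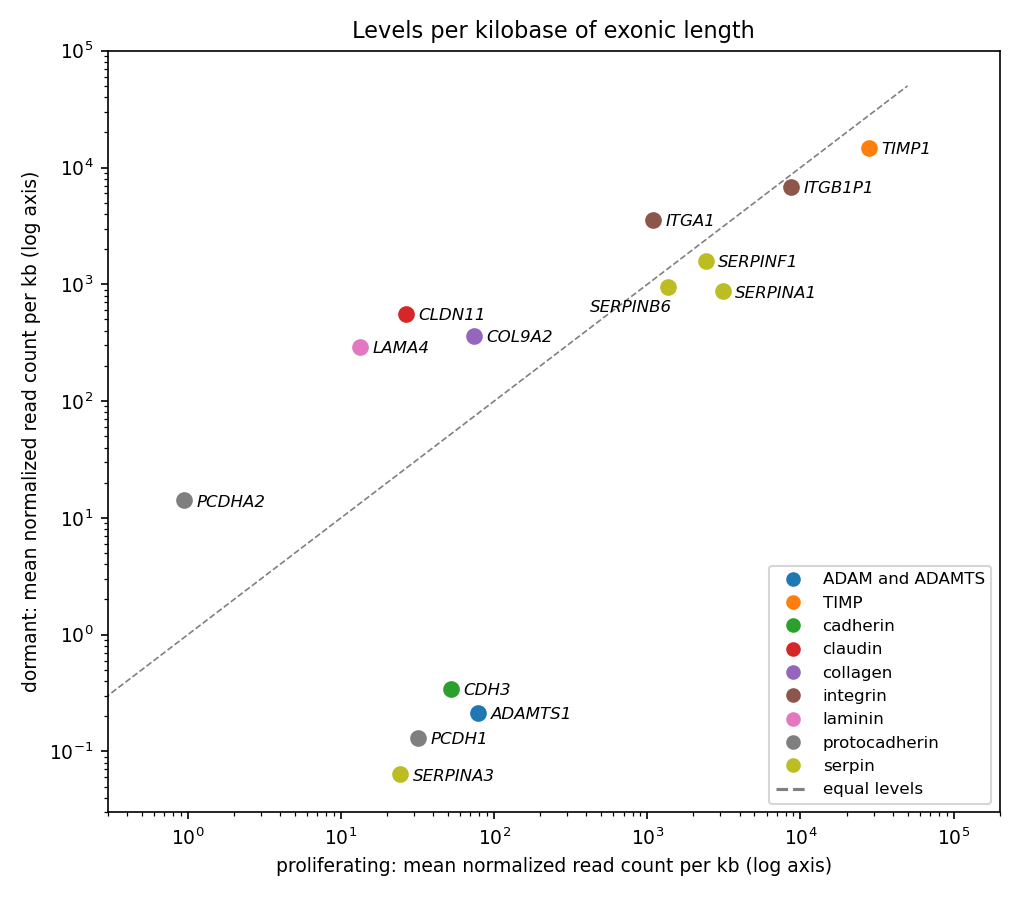
Mean normalized read count per kilobase of exonic length in proliferating (x axis) and dormant (y axis) cells for the 14 genes, both axes log, coloured by family, with a dashed line of equal levels. *ITGA1*, *CLDN11*, *COL9A2*, *LAMA4* and *PCDHA2* lie above the line, and *CDH3*, *ADAMTS1*, *PCDH1* and *SERPINA3* lie under 1 in dormant cells.

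Around these families, the listed genes of 4 wider lists were counted, with 49.6% of all listed genes called higher as the background. Of 57 integrin adhesome genes (receptor partners, adaptors and actin linkers at adhesion sites), 9 were listed, 5 higher and 4 lower, and their log2 fold changes had a median of 1.10. Furthest from 0 were the actin polymerase *ENAH* (2.11 ± 0.46), the kinase *PAK4* (1.72 ± 0.51), the small GTPase *RAC1* (1.38 ± 0.31) and the actin crosslinker *FLNC*, which fell by 1.84 ± 0.52 with groups that overlapped. All named changes of the 4 lists passed edgeR's test. The 5 higher genes also include *ZYX* of focal adhesions, and the 4 lower genes include *CAV1* and the tetraspanins *CD9* and *CD81*.

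Of 62 matrix glycoproteins and proteoglycans, 14 were listed, 11 higher and 3 lower, with a median of 2.25. The small leucine-rich proteoglycans *BGN* (8.88 ± 0.40), *LUM* (8.66 ± 1.21) and *DCN* (8.25 ± 1.67) rose most. Dormant replicate 3 had 30.4 normalized read counts of *DCN*, as compared to 937 and 738 in the others. *CSPG5*, a brain chondroitin sulfate proteoglycan, had 87.0, 12.9 and 42.3 normalized read counts in proliferating and 0 in every dormant replicate. *LUM* and *DCN* are on the fibroblast and mural list as well, and *SPARCL1* is on the astrocyte list.

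Of 60 other genes of cell-cell adhesion, 14 were listed, 11 higher and 3 lower, with a median of 1.34. *EMCN*, an endothelial sialomucin, rose by 4.63 ± 1.29, and the vascular adhesion molecule *VCAM1* by 2.90 ± 0.72. *VSIG1* and *MADCAM1* were next to 0 in dormant cells, with at most 1.90 and 0.960 normalized read counts in a library. Of 48 genes of pericellular proteolysis, 9 were listed, 3 higher and 6 lower, with a median of -0.96. The proprotein convertase *PCSK5* rose by 3.18 ± 0.52, the cystatin *CST4* fell by 1.89 ± 0.45 and the protein C receptor *PROCR* fell by 1.33 ± 0.29. *HYAL4*, a hyaluronidase family member, had 13.0, 181 and 48.8 normalized read counts in proliferating and 0 in every dormant replicate. Of the proteases, *PCSK5* and *PCSK7* (0.82 ± 0.23) were higher, and the urokinase gene *PLAU* was lower (-0.68 ± 0.17). Inhibitors went both ways, with *SPINT1* higher and the cystatins *CST3* and *CST4* lower. The remaining lower genes were the receptors *F2RL1* and *PROCR* and *HYAL4*, so the count of lower genes is not a measure of proteolysis.

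**Figure D4:**
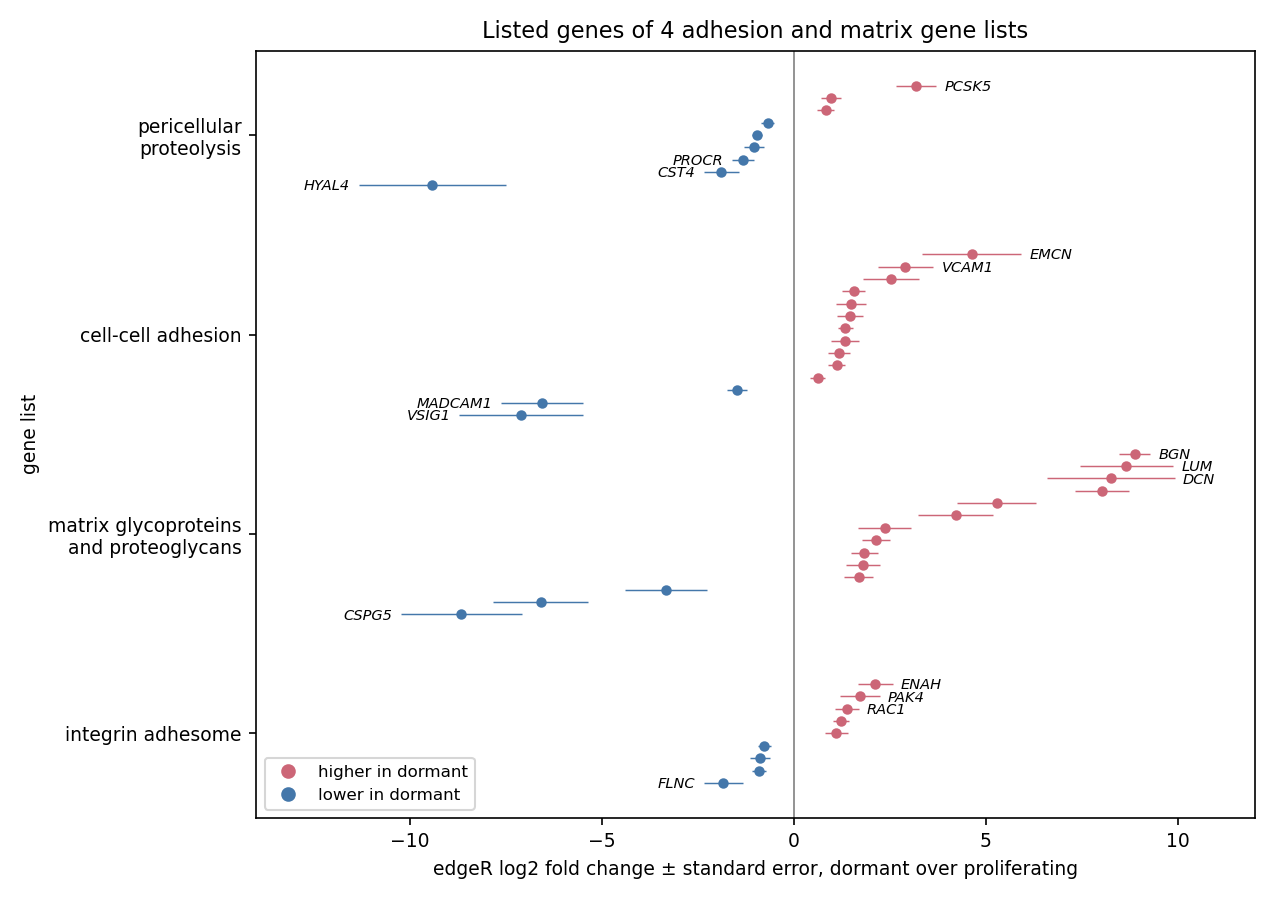
Fitted log2 fold change of dormant over proliferating cells with a standard error derived from edgeR's F statistic for the listed genes of the 4 lists. The 4 genes furthest from 0 are named in each. Most matrix and cell-cell adhesion genes lie right of 0 (11 of 14 in both). Most genes of the pericellular proteolysis list, which mixes proteases, inhibitors, receptors and *HYAL4*, lie left of it (6 of 9). Values of genes at 0 in all dormant libraries (*CSPG5* and *HYAL4*) depend on the small count added in the fit.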

How the data were processed

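After trimming with cutadapt, the authors aligned read pairs by STAR 2.7 to joined human (GRCh38.p12) and mouse (GRCm38.p6) assemblies with GENCODE release 31 for human, counted in Rsubread, where reads of several positions were kept, and removed what aligned to mouse. The deposited estimated counts are not normalized and are partly fractional (43.2% to 49.6% of values per library). The deposited normalized read counts are signal values that the authors made by dividing counts by DESeq2 size factors, as is the deposited mean over libraries. The authors' comparison columns (a fold ratio, log2 fold change, score values for its error and statistic, and p-values) were not used. No column of per-sample values lacked a library.

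Estimated counts were rounded and tested with edgeR 4.0.16 (R 4.3.3; quasi-likelihood, two-sided, the authors' size factors, population as the only term), with Benjamini-Hochberg adjustment over the 1161 listed genes and a threshold of 0.05. Dispersion was thus estimated from selected genes. The standard error printed with a fitted log2 fold change is its absolute value divided by the square root of edgeR's F statistic. Alternatives were DESeq2 1.42.0, limma 3.58.1 on log2 values with 1 or 10 added to each normalized read count, other scalings, a filter on counts under 10 and a block for the replicate number. The numbers pair the samples because both populations of a number came from the same pool of mice. Across listed genes, same-numbered libraries deviated from the population means with a correlation of 0.057, -0.018 and 0.0012 between populations. The 3 pools are separate samples of mice. Exonic lengths, overlaps and coordinates came from GENCODE release 44 (GRCh38), matched by Ensembl identifier for 1157 of 1161 genes. The fits were tested on simulated data, which did not copy the selection of genes in the deposited table. Every listed gene of the families was named, and of the wider lists the 4 genes furthest from 0, and some genes of these lists are not reported here. The members and lists were chosen with earlier results of these data known. Python 3.11.15 was used for tables and plots.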

Additional observations from a re-analysis of the deposited data

How the results depend on the processing

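Of 1161 listed genes, 1157 passed the test, 576 higher and 581 lower in dormant cells. With median-ratio size factors over the listed genes 931 passed, 346 of them higher. For edgeR's test, the number of tests decided most. Counted over all 62700 annotated genes, an alternative chosen after seeing the data, edgeR's quasi-likelihood test called 1 gene, 1 higher and 0 lower, and among the 14 family genes 0 in all, 0 higher and 0 lower, with a smallest adjusted p of 0.174. At an unadjusted p under 0.05, edgeR called 1157 genes. DESeq2 adjusted over the listed genes called all 1161 of them, the 14 members included. Its adjusted p for members was between 4.9e-15 and 0.00078 there. DESeq2 and limma were not adjusted over the annotated genes, so the loss of calls is shown for edgeR only. The replicate block, which pairs libraries of the same pool, called 1097 genes (544 higher, 553 lower) and changed no call among the members. Leaving out each library in turn gave between 1089 and 1135 calls, between 534 and 566 of them higher, and kept 13 members past the threshold each time. Of 196 alternatives for single members, 192 kept direction and side of the threshold, and in the other 4, all for *ITGB1P1*, it passed. The filter on low counts removed 0 genes. The precision of *CDH3*, *PCDH1*, *SERPINA3* and *ADAMTS1* is limited by their few dormant counts.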
